A study of Mus musculus with 8 samples.

Results

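The genes described here are 10 genes of the YAP-TEAD axis whose transcription or protein activity is known to respond to cell density: *Ccn1*, *Ccn2*, *Ankrd1*, *Amotl1*, *Amotl2*, *Lats2*, *Yap1*, *Wwtr1*, *Tead1* and *Ajuba*. They were chosen by gene symbol from 28712 genes listed in the 2 deposited comparison tables, and all 10 were found in both tables. RNA came from 4T1 cells, a mouse triple-negative breast cancer line, grown at 1% O2 and given a purified single-domain antibody (sdAb) at 0.5 μg/ml. Cells of 3 groups, with 2 libraries each, had received sdAb#07.81 (24 h), sdAb#07.81 (48 h) or sdAb-Con (48 h). The sdAb#07.81 protein was selected against NUPR1, a stress-induced transcriptional co-regulator, and sdAb-Con was its control antibody. No group carried a genetic change stated in the labels. Both proteins were made in HEK293F cells and carry a Tat peptide that takes them into cells. The study's Results and a figure legend give the times as the length of antibody treatment. The treatment label can also be read as hours after the cells became confluent. Confluence was not measured in these files, so time after confluence and treatment time cannot be told apart. A further group, Con, was not analysed here. There was no sdAb-Con group at 24 h, so time and antibody cannot be told apart when sdAb-Con (48 h) is set against sdAb#07.81 (24 h).

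YAP (*Yap1*) and TAZ (*Wwtr1*) are transcriptional co-activators that bind DNA through the TEAD factors, of which *Tead1* encodes one. In sparse or stretched cells they are nuclear and switch on genes such as *Ccn1*, *Ccn2* and *Ankrd1*. In dense epithelial sheets the Hippo kinases LATS1 and LATS2 phosphorylate them and keep them in the cytoplasm, and angiomotin proteins bind them at cell junctions. Several inhibitors, *Lats2* and *Amotl2* among them, are themselves YAP/TAZ targets, which closes a negative feedback loop. RNA levels of the factors do not report where the proteins are.

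Promoter sequences of 8 of the 10 genes were found in RefSeq (build GRCm38.p6). The TEAD motif, searched as GGAATG or its reverse complement CATTCC so that both strands were covered, lay within 250 bases before the start of 6 of these 8 genes. The exceptions were *Amotl1* and *Lats2*. Of all 27025 genes with such a window, 3880 held it. Counted by window, it was in 7 of the 10 windows of these genes and in 12.6% of all 32851. A match is a description of letters and not a measured binding site. The 4 promoters below are those of the genes called higher (*Ccn1*, *Ankrd1*, *Amotl2*) or lower (*Yap1*) by both tests used below between 24 h and 48 h of sdAb#07.81, and motif letters are in capitals.
Ccn1, chr3:145649986-145650235, minus strand: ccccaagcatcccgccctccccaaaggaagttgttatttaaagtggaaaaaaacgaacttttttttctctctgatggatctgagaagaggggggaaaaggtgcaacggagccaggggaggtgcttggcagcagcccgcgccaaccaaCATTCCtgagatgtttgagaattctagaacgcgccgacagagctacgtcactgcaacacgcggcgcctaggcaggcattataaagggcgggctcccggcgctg
Ankrd1, chr19:36119845-36120094, minus strand: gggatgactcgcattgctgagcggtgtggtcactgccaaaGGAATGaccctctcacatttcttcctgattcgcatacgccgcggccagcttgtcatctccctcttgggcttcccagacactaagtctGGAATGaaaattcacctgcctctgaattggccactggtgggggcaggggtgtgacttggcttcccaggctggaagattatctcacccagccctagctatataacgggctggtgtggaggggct
Amotl2, chr9:102717554-102717803, plus strand: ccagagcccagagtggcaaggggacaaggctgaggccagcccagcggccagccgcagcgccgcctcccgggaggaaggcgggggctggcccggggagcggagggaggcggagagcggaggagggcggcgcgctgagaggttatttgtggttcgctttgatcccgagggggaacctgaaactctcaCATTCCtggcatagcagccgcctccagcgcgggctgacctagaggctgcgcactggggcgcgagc
Yap1, chr9:8004597-8004846, minus strand: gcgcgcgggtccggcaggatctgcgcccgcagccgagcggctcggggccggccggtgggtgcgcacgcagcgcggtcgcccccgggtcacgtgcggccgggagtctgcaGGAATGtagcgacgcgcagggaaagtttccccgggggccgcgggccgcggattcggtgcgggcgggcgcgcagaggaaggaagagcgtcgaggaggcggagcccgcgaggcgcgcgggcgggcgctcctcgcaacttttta
The motif started 103 bases before the start of *Ccn1*, 65 bases before that of *Amotl2* and 141 bases before that of *Yap1*, while *Ankrd1* held it at 210 and 123 bases. Genes that rose and a gene that fell both carried it.

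The tables give no value per library. The mean of each gene is printed to 15 significant digits, however, and the genes with a single read give the size factor of each library. This fixed the whole reads of every library for 28711 of 28712 genes, with the same 48 h reads from both tables. Libraries within a group are called A and B, since they cannot be tied to the replicate numbers of the labels. Totals ranged from 16776043 to 20230898 reads, and a scaled read below is a read count divided by the size factor of its library, which was between 0.921 and 1.10. The sources do not say whether the libraries of a group came from separate cultures, so p-values measure only the spread between these libraries. Genes whose mean normalized count reached 10 were tested, and a gene was called at an adjusted p under 0.05. All 10 genes passed this filter in every group, with group means from 539 scaled reads (*Lats2* in sdAb-Con) to 19053 (*Ccn1* in sdAb#07.81 at 48 h).

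Markers of mammary epithelium (*Epcam*, *Cdh1* and 5 keratins) were all detected and summed to 2666 to 3060 RPM (scaled to each library's total reads). Of 6 immune markers 5 were found and *Cd68* alone passed the filter. It had 497 and 647 scaled reads in sdAb#07.81 (48 h), 1033 and 642 in sdAb-Con (48 h) and 268 and 236 in sdAb#07.81 (24 h), while *Ptprc* stayed at or below 4.34. The 4 endothelial markers together were below 0.78 RPM. The 6 fibroblast markers summed to 71.4 and 73.5 RPM at 24 h, against 44.5 to 51.9 in the 48 h groups, mostly through *Pdgfra*. By limma voom others of them went the opposite way, with 2 called higher and 1 lower at 48 h in both comparisons with 24 h. The deposited p between the times of sdAb#07.81 called 0 higher and 1 lower. Of the limma voom calls, *Col1a1* was higher in both, and the 24 h libraries differed from each other, with 195 and 38.0 scaled reads of it. In bulk RNA, fewer cells of a type and less RNA per cell cannot be told apart. The part of these markers in the results with the 24 h libraries was not tested.

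**Figure D1:**
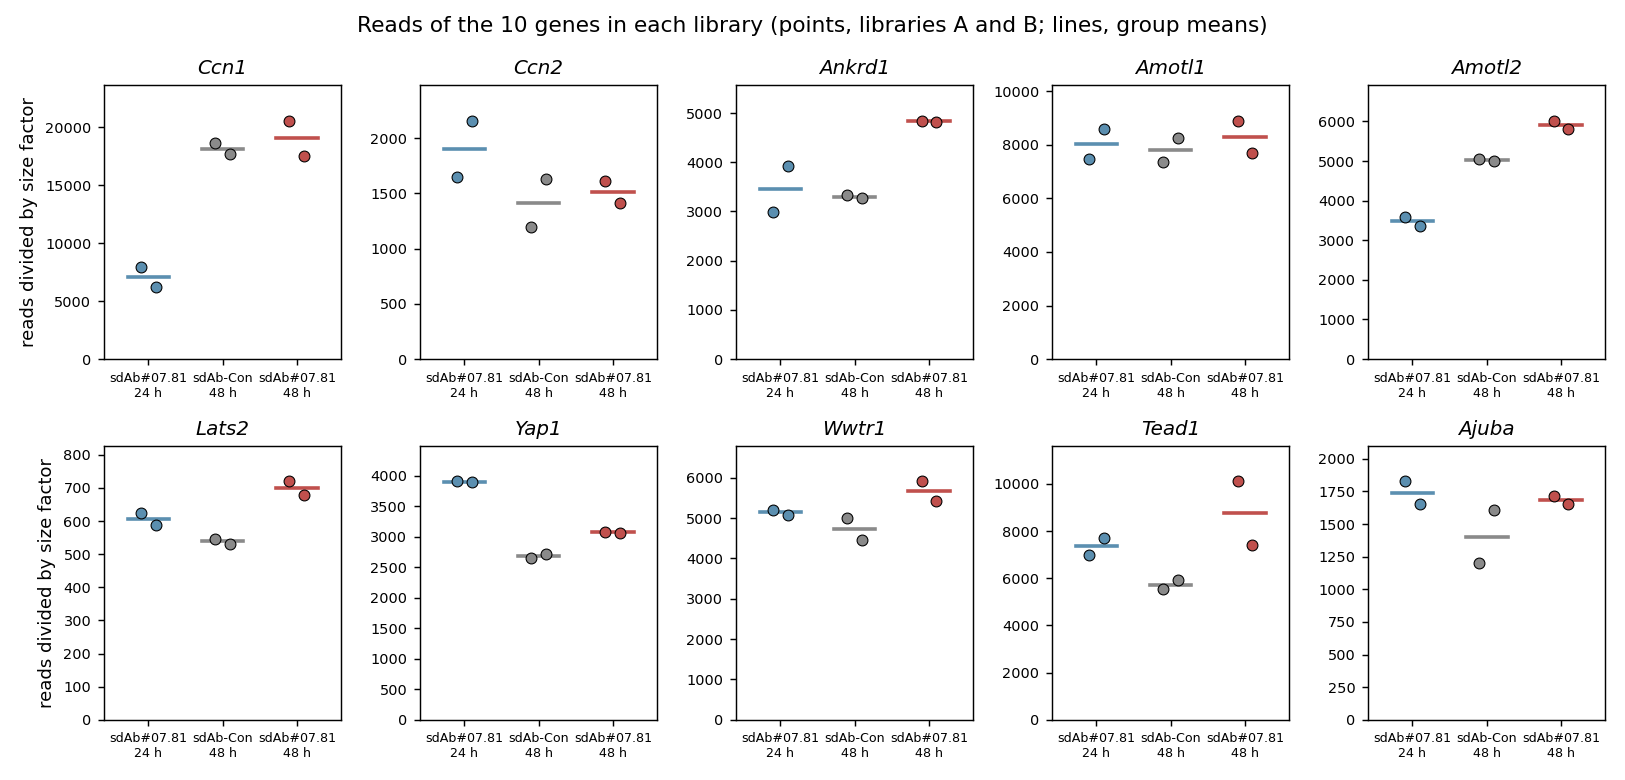
Reads divided by size factor (y axis, from 0) of each gene in the 2 libraries of each group, with points for libraries and lines for group means. *Ccn1* lies between 6248 and 7955 in the 24 h libraries and between 17519 and 20587 in all 4 libraries at 48 h, and *Ankrd1* stands at 4827 and 4846 in sdAb#07.81 (48 h) against 3921 or less elsewhere.

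*Ccn1* (ENSMUSG00000028195; chromosome 3, 145352731 to 145355736 in the tables, whose build is not named) encodes a secreted matricellular protein and is an early YAP/TAZ target. It was the highest of the 10 genes per length, with an RPKM of 519, taken over its longest transcript, in sdAb#07.81 (48 h). Its scaled reads were 20587 and 17519 in sdAb#07.81 (48 h), 18624 and 17720 in sdAb-Con (48 h), and 7955 and 6248 in sdAb#07.81 (24 h). All 4 libraries at 48 h stood above both at 24 h, and the 48 h groups overlapped. From 24 h to 48 h of sdAb#07.81 *Ccn1* rose 2.68-fold (log2 fold change 1.42, SE 0.119, adjusted p = 7.76e-31). sdAb-Con (48 h) was also above sdAb#07.81 (24 h), by a log2 fold change of 1.37 (SE 0.125, limma voom adjusted p = 7.03e-08). At 48 h the antibodies differed by 0.07 (95% interval -0.15 to 0.29, adjusted p = 0.727). *Ccn1* thus varied with the time label, and a difference between antibodies was not detectable at 48 h.

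*Ccn2* (ENSMUSG00000019997; chromosome 10, 24471340 to 24474581) encodes connective tissue growth factor, the close relative of *Ccn1* and the other textbook YAP/TAZ target. Its scaled reads were 1610 and 1410 in sdAb#07.81 (48 h), 1198 and 1629 in sdAb-Con (48 h), and 1650 and 2159 at 24 h. Both 48 h groups lay below the 24 h libraries, by as little as 1629 against 1650. *Ccn2* fell between 24 h and 48 h of sdAb#07.81 with a log2 fold change of -0.33 (SE 0.131, adjusted p = 0.0279), opposite in sign to *Ccn1*. The call was lost with limma voom on the reads (adjusted p = 0.0812), where the value ran from -0.52 without 24 h library A (adjusted p = 0.0084) to -0.14 without 24 h library B (adjusted p = 0.51). sdAb-Con (48 h) was lower than the 24 h group by limma voom (log2 fold change -0.44, adjusted p = 0.0183), but the value was -0.21 without sdAb-Con library A (adjusted p = 0.34) and -0.25 without 24 h library B (adjusted p = 0.19), against -0.65 without sdAb-Con library B and -0.64 without 24 h library A. Between antibodies at 48 h the log2 fold change was 0.10 (95% interval -0.19 to 0.39, adjusted p = 0.714).

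*Ankrd1* (ENSMUSG00000024803; chromosome 19, 36089361 to 36097499) encodes a muscle- and stretch-associated ankyrin repeat protein and is a widely used YAP reporter gene. It had 4846 and 4827 scaled reads in sdAb#07.81 (48 h), 3335 and 3266 in sdAb-Con (48 h), and 2992 and 3921 in sdAb#07.81 (24 h). The sdAb#07.81 (48 h) libraries were above all 4 others, which overlapped. It rose 1.47-fold against sdAb-Con at 48 h (log2 fold change 0.56, SE 0.0809, adjusted p = 1.35e-09) and 1.40-fold against 24 h (0.49, SE 0.117, adjusted p = 0.00017). Between the 24 h group and sdAb-Con (48 h), the latter was at -0.05 (SE 0.120, limma voom adjusted p = 0.735). With limma voom on the reads, both calls of *Ankrd1* held with all libraries (adjusted p = 0.00735 and 0.00252). With 1 library left out, the adjusted p against sdAb-Con was 0.018 to 0.07, and against 24 h it reached 0.078 without 24 h library A, while the log2 fold change against sdAb-Con stayed at 0.54 to 0.56. The log2 fold change against 24 h ranged more widely, from 0.30 without 24 h library A to 0.69 without 24 h library B.

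The angiomotin-like proteins hold YAP at cell junctions. *Amotl2* (ENSMUSG00000032531; chromosome 9, 102593871 to 102610617) had 6019 and 5812 scaled reads in sdAb#07.81 (48 h), 5063 and 4994 in sdAb-Con (48 h), and 3581 and 3371 in sdAb#07.81 (24 h). No group overlapped another, and the order was sdAb#07.81 (48 h), sdAb-Con (48 h), sdAb#07.81 (24 h). *Amotl2* rose 1.70-fold from 24 h to 48 h (log2 fold change 0.77, SE 0.0898, adjusted p = 3.79e-16), and sdAb-Con (48 h) was higher than 24 h by 0.53 (SE 0.104, limma voom adjusted p = 0.000298). Both held with any 1 library left out. The step between antibodies at 48 h was smaller (log2 fold change 0.24, SE 0.0831, adjusted p = 0.0292) and was not called by limma voom (adjusted p = 0.152). Its paralogue *Amotl1* (ENSMUSG00000013076; chromosome 9, 14453262 to 14556352) had 7349 to 8907 scaled reads over all 6 libraries, and the groups overlapped. The log2 fold change of *Amotl1* was 0.09 between antibodies (95% interval -0.13 to 0.32) and 0.05 between times (-0.16 to 0.25), and no call was made.

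*Lats2* (ENSMUSG00000021959; chromosome 14, 57927119 to 57995845) encodes a kinase that phosphorylates YAP and TAZ and was the lowest of the 10 genes per length, with an RPKM of 5.57 to 7.41 in the 3 groups. It had 719 and 678 scaled reads in sdAb#07.81 (48 h), 546 and 532 in sdAb-Con (48 h), and 623 and 587 at 24 h. The groups did not overlap, with sdAb-Con the lowest. *Lats2* was higher in sdAb#07.81 than in sdAb-Con at 48 h (log2 fold change 0.38, SE 0.122, adjusted p = 0.0171), with limma voom giving an adjusted p = 0.0689. Against 24 h the log2 fold change was 0.21 (adjusted p = 0.222). *Ajuba* (ENSMUSG00000022178; chromosome 14, 54804929 to 54815015), which encodes a LIM protein that restrains LATS kinases, had 1713 and 1655 scaled reads in sdAb#07.81 (48 h), 1198 and 1606 in sdAb-Con (48 h), and 1826 and 1655 at 24 h. The spread between the sdAb-Con libraries (1.34-fold) was as large as the differences between groups. *Ajuba* was called only in sdAb-Con (48 h) against sdAb#07.81 (24 h) (log2 fold change -0.33, SE 0.129, limma voom adjusted p = 0.0406), and without sdAb-Con library A that value was -0.11 (adjusted p = 0.57). Without 24 h library A it was -0.26 (adjusted p = 0.16), and without sdAb-Con library B it was -0.54 (adjusted p = 0.0071).

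*Yap1* (ENSMUSG00000053110; chromosome 9, 7932000 to 8004597) had the smallest spread within groups of the co-activators. Its scaled reads were 3083 and 3067 in sdAb#07.81 (48 h), 2645 and 2710 in sdAb-Con (48 h), and 3907 and 3894 in sdAb#07.81 (24 h). The groups did not overlap, and the 24 h libraries were the highest. *Yap1* fell from 24 h to 48 h of sdAb#07.81 (log2 fold change -0.34, SE 0.0887, adjusted p = 0.000504). The sdAb-Con (48 h) libraries were lower still, with a log2 fold change of -0.54 against 24 h (SE 0.103, limma voom adjusted p = 0.000237), and this held with any 1 library left out. The first call had an adjusted p of 0.055 by limma voom without sdAb#07.81 (48 h) library B. Between antibodies at 48 h *Yap1* did not pass (log2 fold change 0.20, 95% interval 0.04 to 0.36, adjusted p = 0.0663).

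*Wwtr1* (ENSMUSG00000027803; chromosome 3, 57363070 to 57483331) had 5907 and 5413 scaled reads in sdAb#07.81 (48 h), 5000 and 4445 in sdAb-Con (48 h), and 5201 and 5075 at 24 h. All 3 groups were apart, with sdAb-Con the lowest. *Wwtr1* was called higher in sdAb#07.81 than in sdAb-Con at 48 h (log2 fold change 0.27, SE 0.100, adjusted p = 0.0487), close to the threshold, and limma voom gave an adjusted p = 0.124, with a value of 0.18 when sdAb-Con library B was left out (adjusted p = 0.49). Its log2 fold change against 24 h was 0.14 (95% interval -0.04 to 0.32, adjusted p = 0.216). TAZ RNA thus did not show the fall that passed the test for *Yap1*, although the difference between the genes was not tested.

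*Tead1* (ENSMUSG00000055320; chromosome 7, 112278525 to 112506014) encodes a DNA-binding partner of both co-activators. Its scaled reads were 10107 and 7395 in sdAb#07.81 (48 h), 5544 and 5915 in sdAb-Con (48 h), and 6995 and 7720 at 24 h. Library A of sdAb#07.81 (48 h) was 1.37 times library B, which fell among the 24 h values. *Tead1* rose 1.53-fold against sdAb-Con at 48 h (log2 fold change 0.62, SE 0.144, adjusted p = 0.000453; limma voom 0.00711). Without sdAb#07.81 (48 h) library A the value was 0.36 (limma voom adjusted p = 0.24), and without sdAb-Con library A it was 0.54 (adjusted p = 0.081). Against 24 h the log2 fold change was 0.25 (95% interval -0.20 to 0.70, adjusted p = 0.404), and by limma voom it was 0.01 without sdAb#07.81 (48 h) library A (adjusted p = 0.98) and 0.46 without library B (adjusted p = 0.0099). The sdAb-Con (48 h) level was below that of the 24 h group (-0.36, SE 0.129, limma voom adjusted p = 0.0257). That call was lost without sdAb-Con library A or B (-0.31 and -0.40, adjusted p = 0.15 and 0.054) and without 24 h library B (-0.30, adjusted p = 0.12), at values close to that with all libraries.

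**Figure D2:**
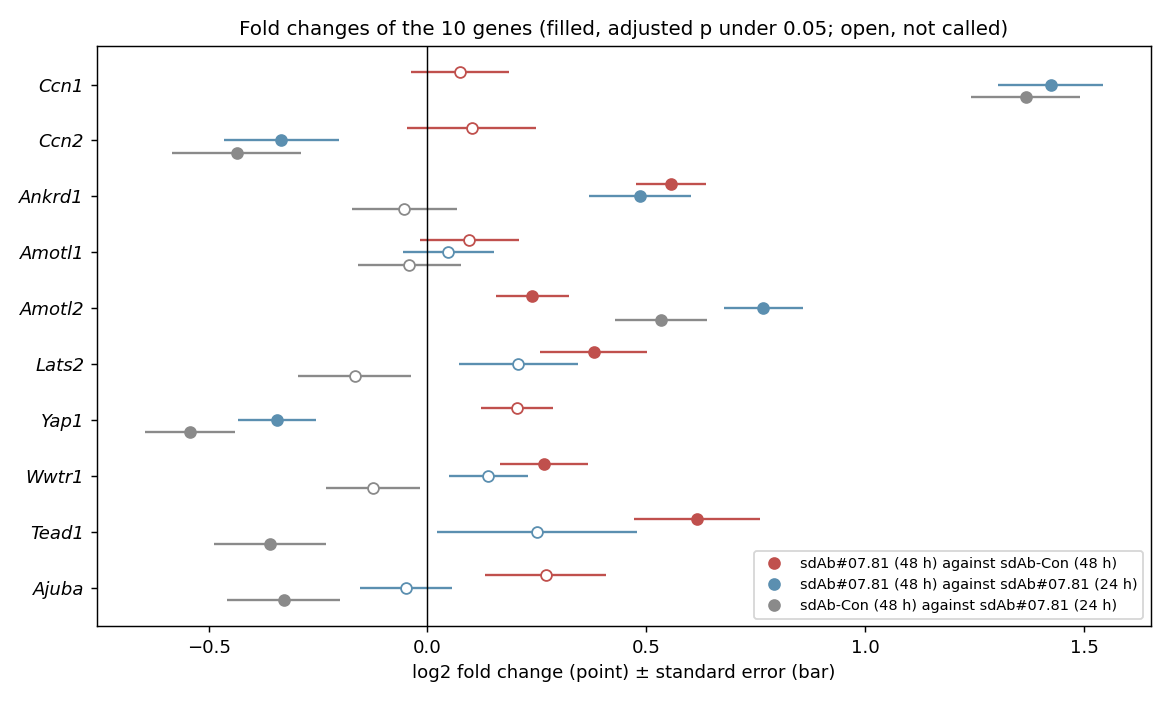
Log2 fold changes of the 10 genes (x axis) with bars for 1 standard error, for the 3 pairs of groups named in the key. Filled points were called. *Ccn1* lies at 1.42 and 1.37 in the comparisons with 24 h, and all 10 points for sdAb#07.81 against sdAb-Con at 48 h are above 0.

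Between antibodies at 48 h, 5 of the 10 genes were called higher (*Ankrd1*, *Tead1*, *Lats2*, *Amotl2*, *Wwtr1*) and 0 lower. All 10 fold changes were above 0, so none was lower at an unadjusted p under 0.05 or by limma voom either. Of all 13876 genes tested, 16.6% were called, 9.9% higher and 6.75% lower. Their log2 fold changes had a median of 0.25, against -0.02 over all tested genes, and both sdAb#07.81 libraries stood above both sdAb-Con libraries in 7 of the 10 genes (27.9% of all genes). With limma voom on the reads, 2 of the 10 were called (*Ankrd1* and *Tead1*), beside 10% of all 13952 genes in that fit. Leaving out 1 library gave 0 to 2, beside 218 to 1486 of all genes.

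Fold changes in this comparison moved with transcript length, GC content and level across all genes, and removal of that trend lowered the calls over all genes from 2310 to 714 (5.2% of those with a length). *Ankrd1* was 0.71 (adjusted p = 1.18e-15) and *Amotl2* 0.26 (adjusted p = 0.0354) after removal, and both stayed called. *Tead1*, whose longest transcript has 9964 bases, went from 0.62 to 0.27 (adjusted p = 0.324), *Wwtr1* went to 0.15 (adjusted p = 0.516) and *Lats2* to 0.31 (adjusted p = 0.133). *Ccn1*, with a longest transcript of 2019 bases, went to 0.33 (adjusted p = 0.0583), and *Amotl1* turned to -0.15 (adjusted p = 0.565). Of the 10 genes, *Ankrd1* alone was called by the deposited p, by limma voom with all libraries and after trend removal.

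**Figure D3:**
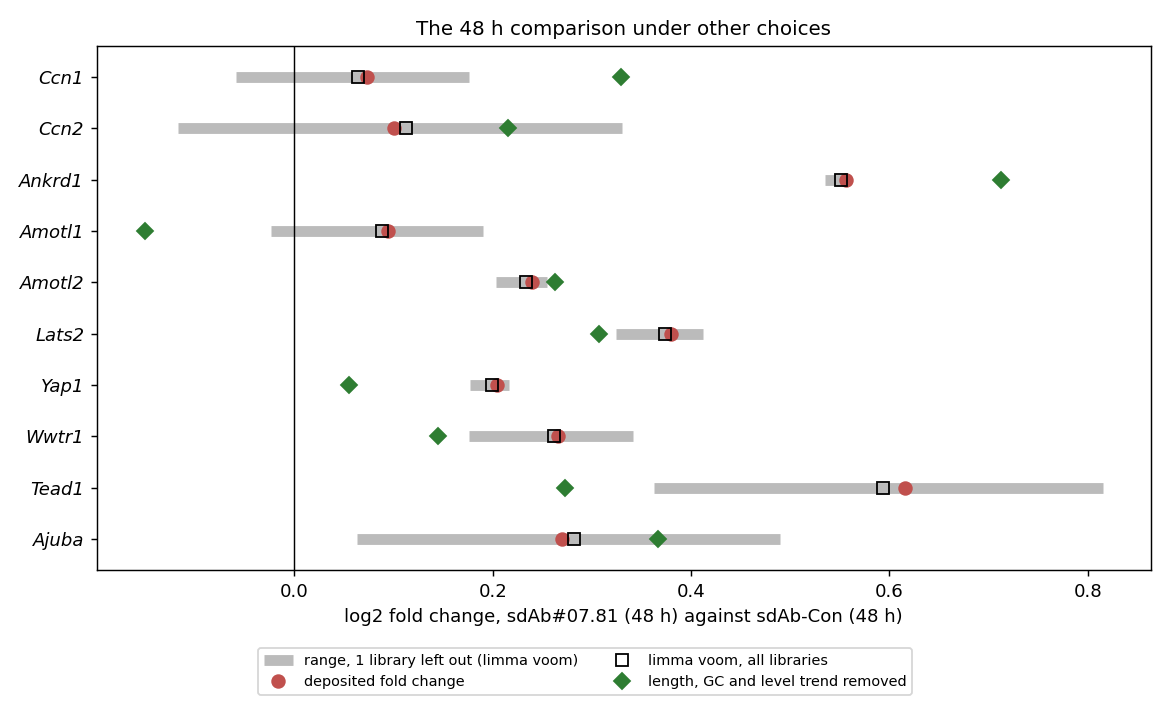
Log2 fold change of the 10 genes in sdAb#07.81 (48 h) against sdAb-Con (48 h) (x axis), as deposited, by limma voom, after the length, GC and level trend was removed, and as the range over limma voom fits with 1 library left out (bars). *Ankrd1* stays at 0.535 or above throughout, and *Tead1* spans 0.273 to 0.815.

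Between 24 h and 48 h of sdAb#07.81, 3 of the 10 genes were called higher (*Ccn1*, *Amotl2*, *Ankrd1*) and 2 lower (*Yap1*, *Ccn2*). This comparison moved much of the transcriptome, since 41.9% of 13968 tested genes were called, 19.8% higher and 22.1% lower. The 10 genes were therefore called about as often as genes in general. Their median was 0.17 on the log2 scale, against -0.01 over all tested genes. After trend removal *Lats2* was also called higher (0.32, adjusted p = 0.0422), which made 6 calls beside 41.4% of all genes, and limma voom made 4 beside 43.3%. Both 48 h libraries stood above both 24 h libraries in 5 of the 10 genes (34.9% of all genes) and below in 2 (36.4% of all genes). In sdAb-Con (48 h) against sdAb#07.81 (24 h), 2 of the 10 genes were called higher (*Ccn1*, *Amotl2*) and 4 lower (*Yap1*, *Ccn2*, *Tead1*, *Ajuba*) by limma voom. Of 13952 genes tested there, 51.4% were called, 25.4% higher and 26.1% lower, so this count too was near that of all genes. These comparisons share libraries with each other. *Ccn1* and *Amotl2* were called higher, and *Yap1* and *Ccn2* lower, in each 48 h group against the same 24 h libraries of sdAb#07.81. Without sdAb-Con at 24 h, a change with time under sdAb-Con was not measured. Between the times of sdAb#07.81, *Ccn2* was not called by limma voom (adjusted p = 0.0812). *Ankrd1* was called in the 2 comparisons that include sdAb#07.81 (48 h) and not in the third.

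The remaining Hippo pathway genes give the setting. In sdAb#07.81 against sdAb-Con at 48 h, 21 Hippo kinases, adaptors and inhibitors were tested, 4 of them among the 10 genes above. Of these 21, 9 were called higher and 0 lower, beside 9.9% and 6.75% of all tested genes. Limma voom called 4 higher and 0 lower, beside 10% of all genes in either direction. At an unadjusted p under 0.05 the counts were 12 and 0, a cut that was not counted over all genes. *Lats1*, the second LATS kinase, had 3276 and 2972 scaled reads in sdAb#07.81 (48 h), 2079 and 2222 in sdAb-Con (48 h), and 3643 and 3747 at 24 h. Its log2 fold change between antibodies was 0.54 (SE 0.0945, adjusted p = 7.31e-07). *Mob1b*, a LATS co-activator, was at 0.57 (adjusted p = 6.35e-06), *Ptpn14*, a phosphatase that binds YAP, at 0.57 (adjusted p = 8.01e-05), *Taok1*, an upstream kinase, at 0.58 (adjusted p = 0.000506), and its relative *Taok3* at 0.33 (adjusted p = 0.0375). After removal of the length, GC and level trend, 2 of the 21 were called, beside 5.2% of all genes. These were *Amotl2* and *Wwc1* (0.36, adjusted p = 0.0323, chosen after its values were seen). *Lats1* was then at 0.26 (adjusted p = 0.0849) and *Mob1b*, *Ptpn14*, *Taok1* and *Taok3* at 0.15, 0.25, 0.07 and 0.30, with adjusted p from 0.14 to 0.876. Between 24 h and 48 h of sdAb#07.81, 4 were higher, with *Taok3* at 0.74 (adjusted p = 1.41e-06) and *Amotl2* leading, and 4 were lower, among them *Taok1* (-0.41, adjusted p = 0.00095) and *Lats1* (-0.24, adjusted p = 0.0266; limma voom 0.0712). Over all tested genes 19.8% were higher and 22.1% lower. Trend removal changed the split of the Hippo genes to 8 higher and 1 lower, beside 41.4% of all genes called. The lower gene was *Sav1*, which encodes the adaptor of the MST kinases and was named after its values were seen. It was at -0.48 (adjusted p = 0.000241; limma voom 0.00289) before and -0.45 (adjusted p = 0.000664) after removal. After it, *Taok1* was at -0.25 (adjusted p = 0.0608) and *Lats1* at -0.12 (adjusted p = 0.333). In sdAb-Con (48 h) against sdAb#07.81 (24 h), 3 were higher and 11 lower by limma voom, beside 25.4% and 26.1% of all genes.

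Of 8 tested YAP, TAZ, TEAD and Vgll factors, 3 were called higher and 1 lower between antibodies at 48 h. Over all tested genes the shares were 9.9% and 6.75%. Besides *Tead1* and *Wwtr1* the higher gene was *Vgll3*, a TEAD co-factor (log2 fold change 0.57, SE 0.162, adjusted p = 0.00549). *Tead2*, a paralogue of *Tead1*, had 1400 and 1352 scaled reads in sdAb#07.81 (48 h), 1727 and 1751 in sdAb-Con (48 h), and 1240 and 1353 at 24 h. It was the lower gene (-0.33, SE 0.0911, adjusted p = 0.00382; limma voom 0.0577), opposite in sign to *Tead1*. After trend removal 0 of the 8 were called, beside 5.2% of all genes, with 1 at an unadjusted p under 0.05. Limma voom called 2 higher and 0 lower, beside 10% of all genes in either direction. From 24 h to 48 h of sdAb#07.81 1 was higher and 2 lower, with *Tead4* at -0.60 (SE 0.168, adjusted p = 0.00159) beside *Yap1*, and *Vgll3* at 0.47 (adjusted p = 0.0263). Of all genes, 19.8% were higher and 22.1% lower between these times. In sdAb-Con (48 h) against sdAb#07.81 (24 h) the counts of factors were 2 higher and 3 lower, beside 25.4% and 26.1% of all genes.

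Between antibodies at 48 h, 19 YAP/TAZ target genes were tested, 5 of them among the 10 genes. Of these 19, 9 were called higher and 0 lower, beside 9.9% and 6.75% of all tested genes. Limma voom called 6 higher and 0 lower, beside 10% of all genes in either direction. At an unadjusted p under 0.05 the counts were 10 and 1, a cut that was not counted over all genes. After trend removal 5 stayed called higher and 0 were lower, beside 5.2% of all genes called. The 5 were *Ankrd1*, *Amotl2*, *Crim1*, *Tgfb2* and *F3*. *Crim1*, a transmembrane regulator of growth factors, had 8363 and 7174 scaled reads in sdAb#07.81 (48 h), 4901 and 4706 in sdAb-Con (48 h), and 3360 and 3998 at 24 h. Its log2 fold change was 0.70 between antibodies (SE 0.105, adjusted p = 4.85e-09) and 1.08 between times (SE 0.109, adjusted p = 2.88e-21). *Tgfb2*, a TGF-beta ligand, was at 0.67 (adjusted p = 3.95e-06) and 1.40 (adjusted p = 4.81e-18), and *F3*, tissue factor, at 0.37 (adjusted p = 0.034; limma voom 0.0953) and 0.81 (adjusted p = 1.05e-06). *Crim1*, *Tgfb2* and *F3* had the same order of groups as *Amotl2*. *Gadd45a*, a stress-response gene, had the lowest level at 24 h as well, with a log2 fold change of 1.51 between times (SE 0.133, adjusted p = 7.45e-28) and -0.31 between antibodies (adjusted p = 0.0506). From 24 h to 48 h of sdAb#07.81, 8 targets were called higher and 5 lower, beside 19.8% and 22.1% of all genes. Limma voom called 8 higher and 3 lower, beside 43.3% of all genes in either direction. Trend removal gave 11 and 5, beside 41.4%. In sdAb-Con (48 h) against sdAb#07.81 (24 h) 8 were higher and 8 lower, beside 25.4% and 26.1% of all genes. The called targets moved in both directions between the times of sdAb#07.81, as did genes in general.

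Of the 6 CCN genes 4 were tested. Between antibodies at 48 h 0 were called by the deposited p or by limma voom, and 0 had an unadjusted p under 0.05. After trend removal 0 were called and 2 had an unadjusted p under 0.05. *Ccn3*, a growth-restraining member of the family, had 18.6 and 19.5 scaled reads in sdAb#07.81 (48 h), 39.0 and 31.0 in sdAb-Con (48 h), and 54.7 and 70.3 at 24 h. It fell from 24 h to 48 h with a log2 fold change of -1.71 (SE 0.450, adjusted p = 0.000648), at a level far below that of *Ccn1*. With *Ccn2* it made 2 lower and 1 higher CCN gene in that comparison by the deposited p, beside 41.9% of all genes called. Limma voom called 1 higher and 1 lower there, beside 43.3% of all genes. In sdAb-Con (48 h) against sdAb#07.81 (24 h) limma voom called 2 lower and 1 higher, beside 51.4% of all genes.

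**Figure D4:**
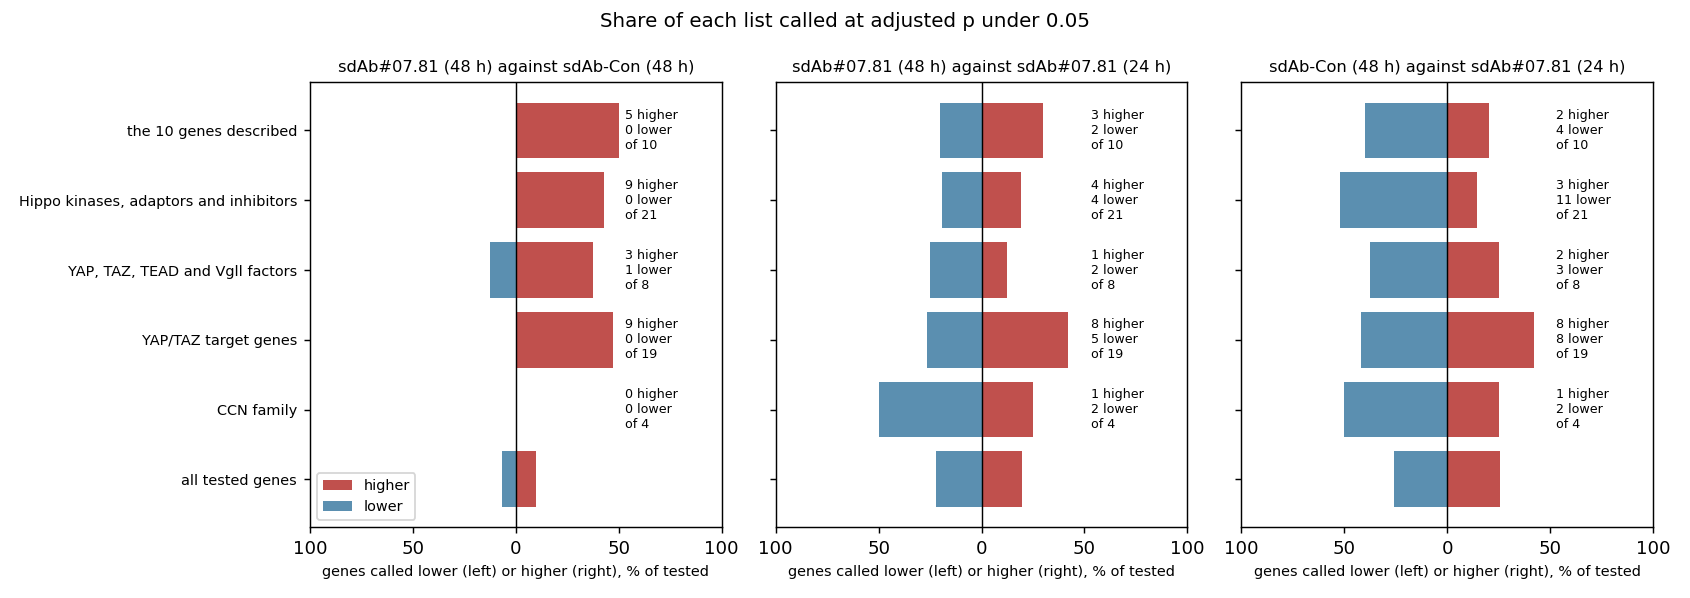
Share of each list, in % of its tested genes, called higher (right) or lower (left) at an adjusted p under 0.05 in the 3 comparisons, with counts printed beside the bars and all tested genes in the lowest row. In sdAb#07.81 (48 h) against sdAb-Con (48 h), 9 of 21 Hippo genes and 9 of 19 targets were higher and 0 lower, before trend removal. Of all tested genes there, 9.9% were higher and 6.75% lower.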

How the data were processed

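RNA of 4T1 cells was sequenced in 4 groups of 2 libraries, and 2 gene-wise comparison tables covering 3 groups were used. Per the labels, the submitters' processing notes name cutadapt 1.9.1, HISAT2 2.0.1 and HTSeq 0.6.1, and list build GRCh38.p14, a human build, although the tables hold mouse identifiers. The tool behind the test, and whether counting used strand, are not given in the sources used here. For each gene the authors deposited a signal, the mean over 4 libraries of read counts divided by size factors, with a log2 fold change, its standard error and a two-sided Wald p-value. The deposited adjusted p-values cover all genes of a table.

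Here the p-values were adjusted again (Benjamini-Hochberg) over genes with a mean of at least 10, threshold 0.05. Whole reads of 6 libraries were solved from the means and the fold changes, which the recovered reads gave back within 2e-05 on the log2 scale; 99.9965% of genes had a single solution (exception *Col3a1*). Depth was 16776043 to 20230898 reads per library, and intervals of the log2 fold change are 95% normal ones. Recovered reads were fitted with limma 3.58.1 (voom, R 4.3.3; 3 groups sharing 1 spread) with median-of-ratios size factors. No test had been planned for sdAb-Con (48 h) against sdAb#07.81 (24 h). This fit, chosen after seeing the data, serves there. The trend with longest transcript length, GC content (GENCODE M21) and mean count was a cubic fit over tested genes, of which 98.9% had a length. Other steps ran in Python 3.11.15 (matplotlib 3.10.9, numpy 2.4.6, pandas 2.3.3, scipy 1.17.1). The methods were tested on simulated data.

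The 10 genes and the 4 lists (55 genes) were chosen with earlier results of these data known. Named beside the 10 genes were, for each list, at most 6 called genes with the largest log2 fold change in either deposited table, members counted. *Wwc1* and *Sav1* fall outside this rule and were named after their values were seen. Lists are described by counts, with no set test.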

Additional observations from a re-analysis of the deposited data

How the results depend on the processing

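No paired analysis was possible because the recovered libraries carry no replicate number. In sdAb#07.81 (48 h) against sdAb-Con (48 h), the 5 calls among the 10 genes became 3 without the filter (deposited adjustment over all genes), 1 with a fold change of at least 1.5, 0 with a limit of 1 on the log2 scale, 2 after trend removal, 2 by limma voom with either scaling and 0 to 2 with 1 library left out. In the same order, all genes called went from 2310 to 1794, 606, 154, 714, 1396 and 1488 (limma voom, size factors and total reads), and 218 to 1486 with 1 library left out, lowest without sdAb#07.81 (48 h) library A. With a mean count of at least 100, a limit that all 10 genes pass, the 5 calls stayed 5. All genes called were then 2398, out of fewer genes tested, so the share over all genes was above 16.6%. After trend removal, list calls were 2 for Hippo genes, 0 for the factors and 5 for the targets. In sdAb#07.81 (48 h) against sdAb#07.81 (24 h), the 5 calls became 2 at 1.5-fold and 1 at a log2 fold change of 1, with 3384 and 1466 of all genes in place of 5846. They became 4 without the filter, 4 by limma voom and 6 after trend removal (all genes 5240, 6038 and 5715), and the 5 calls between antibodies became 6 with the median log2 fold change subtracted (all genes 2297). In sdAb-Con (48 h) against sdAb#07.81 (24 h), the 6 calls became 3 to 5 with 1 library left out, and the 7177 of all genes 5119 to 6455, both lowest without sdAb-Con library A. The cause of the losses under limma voom and trend removal was not tested, nor was that of the changes with 1 library left out. The fold limits lower the counts by construction.

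Sign changes were limited to fold changes that had not been called. Between antibodies, with 1 library left out, *Ccn1* ranged from -0.0587 to 0.176 and *Amotl1* from -0.0236 to 0.19, both below 0 without sdAb#07.81 (48 h) library A, and *Ccn2* from -0.117 (without sdAb-Con library A) to 0.33. *Amotl1* was -0.151 after trend removal. Between times, *Amotl1* ranged from -0.0606 to 0.153, below 0 without library A of either group, and was -0.00583 with total-read scaling, and *Ajuba* ranged from -0.121 to 0.0218 (without 24 h library A) and was 0.0589 after trend removal. In sdAb-Con (48 h) against sdAb#07.81 (24 h), *Ankrd1* ranged from -0.254 to 0.133 and *Amotl1* from -0.149 to 0.0537, both above 0 without 24 h library B, *Amotl1* also without sdAb-Con library A (0.0458). With 2 libraries a group, the size of change that could be called varied with the gene and the test: between antibodies *Amotl2* was called at 0.24, and *Ajuba* (0.27, adjusted p = 0.176) was not.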
